A study of Isodiametra pulchra with 2 samples.

Results

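In hatchlings of the marine worm *Isodiametra pulchra*, 147 of 7758 called barcodes carried transcripts of TRINITY_DN20394_c0_g1 or TRINITY_DN29970_c0_g1, a pair of features that no name accompanies in the files. A barcode labels the transcripts of 1 droplet, and a called barcode is one with enough transcripts to be taken as a cell. Transcripts were counted as UMIs (unique molecular identifiers, 1 per captured molecule) in 2 droplet libraries of wild-type hatchlings, named library 1 and library 2 here. Barcodes were called above 165.4 UMIs in library 1 and above 1026.8 UMIs in library 2, the 99th percentile of the totals of the 3000 largest barcodes divided by 10. They were counted as marked when their summed UMIs of the 2 features reached 1 in library 1 and 2 in library 2. This gave 64 marked barcodes of 4483 in library 1 and 83 of 3275 in library 2. The 2 features chose the barcodes, so their own levels are given as a description only, and both were left out of every comparison of other features.

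All cells came from hatchlings dissociated with collagenase, with no treatment or mutant, so there is 1 group. The comparison is between marked and other called barcodes inside each library, and the 2 libraries are the replicates. The labels do not say whether the libraries came from separate batches of animals. The p-values rest on the size of the counts and on how far the difference between marked and other barcodes varied between the 2 libraries. For each feature, that variation was estimated partly from all features, so a small p does not show that the 2 libraries agreed. The p-values use no other replicate. The number of animals is not given in the sources used here. A label notes kit versions 2 and 3 of the 10x Genomics 3′ chemistry, and kit and library cannot be told apart.

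Acoels such as *I. pulchra* are small, soft-bodied marine worms without a body cavity. Their digestive tissue generally lacks a permanent gut lumen, and their new cells arise from stem cells called neoblasts. Single-cell counting records a small part of the transcripts of each cell, so a cell that uses a gene at a low level often shows no UMI of it. Features here are genes of a Trinity transcriptome assembly, numbered by the fields DN, c and g (gene). A component here means all features with the same DN number, whatever their c field. They carry no gene names, so no role is given for any of them, no sequence is printed and the marked barcodes are not called a cell type.

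Depth set what could be seen in each library. The marked barcodes held a median of 373.5 UMIs outside the 2 features in library 1, against 287 UMIs in the other called barcodes, and 1741 against 1515 UMIs in library 2. They held 29659 and 239702 such UMIs in all, so library 2 supplied most of the evidence. At equal depth, thinned to the calling minimum, marked barcodes held a median of 149 features in library 1, against 152 in the others, and 690 against 597.5 features in library 2. No called barcode sequence was shared between the libraries (0 barcodes), although 7605 sequences with a UMI occurred in both. Median doublet scores were 0.0483 in marked barcodes against 0.0642 in the others of library 1, and 0.0492 against 0.0427 in library 2.

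The marked barcodes were rare in both libraries. They made up 1.43% of the called barcodes in library 1 (exact 95% binomial interval 1.10 to 1.82%) and 2.53% in library 2 (2.02 to 3.13%). These shares follow different minima and depths. With every called barcode thinned to the calling minimum of library 1 and 1 UMI of either feature required, 36 of 4483 barcodes of library 1 (0.803%, 0.563 to 1.11%) and 29 of 3275 barcodes of library 2 (0.885%, 0.594 to 1.27%) remained, with overlapping intervals. The share of marked barcodes was 0.803% among the 1121 shallowest called barcodes of library 1 and 2.41% among the 1121 deepest. In library 2 it was 1.95% among the 819 shallowest and 3.05% among the 819 deepest. All such intervals cover counting error only.

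Both features were scarce even where found. In library 1 the marked barcodes held 32 UMIs of TRINITY_DN20394_c0_g1 and 40 of TRINITY_DN29970_c0_g1, with at most 2 UMIs of either in a barcode. Of the marked barcodes there, 57 had a summed count of 1, 6 had a count of 2 and 1 had a count of 3. In library 2 they held 135 and 132 UMIs, with at most 6 and 8 in a barcode and a highest sum of 12. Just outside the minimum of library 2 lay 84 barcodes with a sum of 1, and just inside it lay 44 with a sum of 2. The 4419 barcodes just outside the minimum of library 1 held 0 UMIs.

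The level of TRINITY_DN20394_c0_g1 was 1076 CPM (UMIs per 1000000 UMIs) in the marked barcodes of library 1, where the others have 0 by the rule. In library 2 it was 563 CPM in the marked and 6.36 CPM in the other barcodes. TRINITY_DN29970_c0_g1 stood at 1345 CPM in the marked barcodes of library 1, and at 550 CPM in the marked against 6.06 CPM in the other barcodes of library 2. Empty droplets were taken as the barcodes with totals within 20% of 59 UMIs in library 1 and of 311 UMIs in library 2. In them the first feature was at 7.67 CPM in library 1 and 10.3 CPM in library 2, and the second was at 8.08 and 7.39 CPM. Over all called barcodes the first was 2.43-fold and 2.47-fold above the empty droplets, and the second 2.88-fold and 3.34-fold. A UMI of either was found in 0.0908% (library 1) and 0.516% (library 2) of empty droplets.

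The joint presence of the 2 features is given as a description, since their UMIs chose the marked barcodes. Of the 110 barcodes of library 2 with TRINITY_DN20394_c0_g1, 55 also held TRINITY_DN29970_c0_g1 (50%, exact 95% interval 40.3 to 59.7%), against 57 of 3165 barcodes without it (1.80%, 1.37 to 2.33%). In library 1 it was 3 of 29 barcodes (10.3%, 2.19 to 27.4%), against 35 of 4454 (0.786%, 0.548 to 1.09%). In empty droplets it was 0 of 18 in library 1, against 20 of 41837 (0.0478%), and 2 of 102 in library 2 (1.96%, 0.238 to 6.90%), against 70 of 33213 (0.211%, 0.164 to 0.266%). Thinned to the calling minimum of library 1, 1 of 19 barcodes of library 1 (5.26%, 0.133 to 26.0%) and 1 of 16 of library 2 (6.25%, 0.158 to 30.2%) with the first feature held the second. Without the first feature these shares were 0.381% and 0.399%, inside those intervals, so neither the excess nor a gap between the libraries was resolved at that depth.

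**Figure D1:**
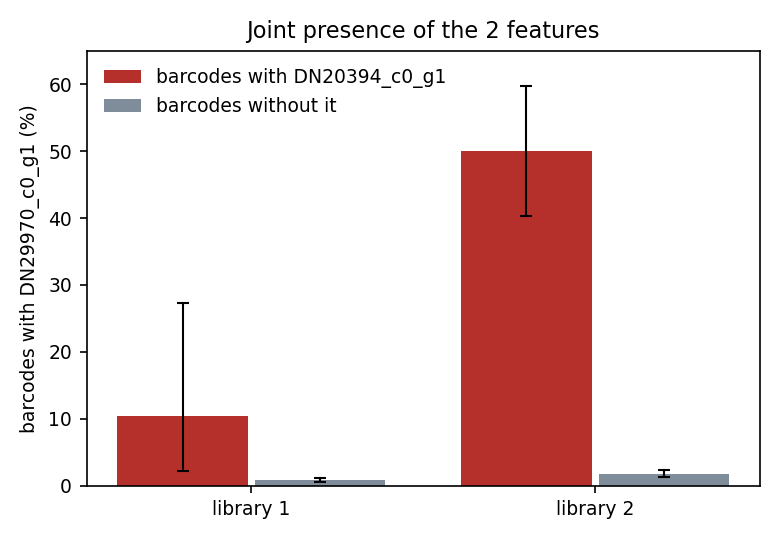
Share of called barcodes that hold a UMI of TRINITY_DN29970_c0_g1 (y axis, %), among barcodes with TRINITY_DN20394_c0_g1 (red) and without it (grey) in each library; error bars are exact 95% binomial intervals over barcodes. In library 2 the shares were 50% and 1.80%, in library 1 10.3% and 0.786%.

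The marked barcodes fell largely into 1 cluster of cells that had been formed without either feature. The called barcodes of both libraries were clustered together on their other features into 29 clusters, numbered by size. Cluster 5 held 48 of 64 marked barcodes of library 1 (75%, exact 95% interval 62.6 to 85.0%) and 64 of 83 of library 2 (77.1%, 66.6 to 85.6%). That cluster comprised 7.56% of all called barcodes of library 1 (339 barcodes) and 3.97% of those of library 2 (130 barcodes). Every one of the 7 barcodes of library 1 with a summed count of at least 2 lay in it, and 20 of the 23 of library 2 with a sum of at least 4. In all other clusters together the 2 features summed to 10.1 CPM in library 1 and 14.96 CPM in library 2, no higher than the 15.8 and 17.7 CPM of empty droplets. The remaining 16 and 19 marked barcodes were scattered over 8 and 10 other clusters, with at most 5 in any of them in each library.

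**Figure D2:**
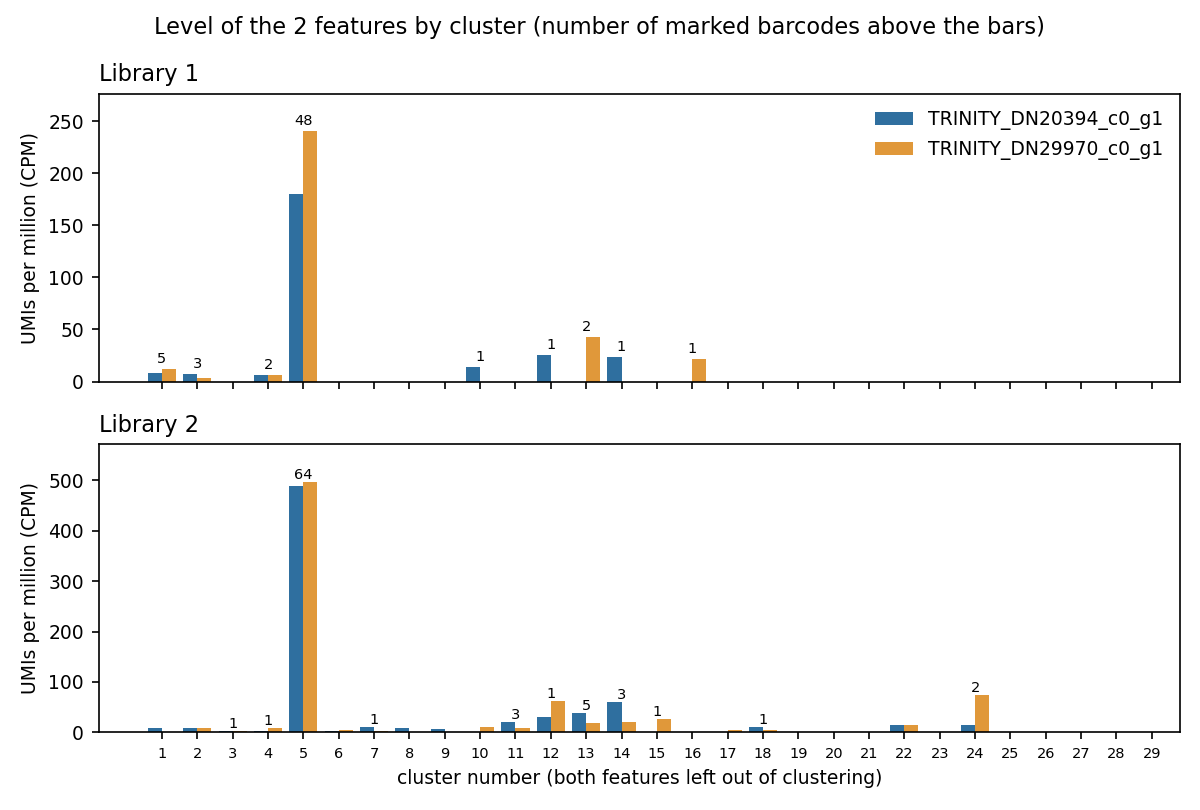
Level of TRINITY_DN20394_c0_g1 (blue) and TRINITY_DN29970_c0_g1 (orange) in CPM of each cluster with at least 20 barcodes of that library; numbers give the marked barcodes. Cluster 5 stands out in both libraries, with 48 and 64 marked barcodes.

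Within cluster 5 the 2 features summed to 421 CPM (library 1) and 986 CPM (library 2). The highest summed level in any other cluster of at least 20 barcodes was 42.8 CPM in library 1 and 94.1 CPM in library 2. A UMI of either feature was present in 98 of 130 barcodes of cluster 5 in library 2 (75.4%, 67.1 to 82.5%), against 2.19% of barcodes elsewhere (1.71 to 2.77%), at median totals of 1533 and 1520 UMIs. In library 1 it was present in 48 of 339 (14.2%, 10.6 to 18.3%), against 0.386% elsewhere (0.221 to 0.626%), at median totals of 321 and 284 UMIs. Most barcodes of cluster 5 in library 1 were thus unmarked. After thinning to the calling minimum of library 1 the share in cluster 5 was 8.85% in library 1 (6.05 to 12.4%) and 15.4% in library 2 (9.66 to 22.8%), against 0.145% and 0.286% elsewhere. Clustering is itself a choice: with finer clusters (resolution 2.0) the cluster was divided in library 2, where 39 marked barcodes lay among 62 barcodes at 1231 CPM and 25 lay among 69 barcodes at 708 CPM. None of the barcodes of library 1 entered the first of these (0 barcodes).

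Features other than the 2 of the rule were tested on counts summed over marked and over other barcodes of each library, with the quasi-likelihood test of edgeR, library as a block and Benjamini-Hochberg adjustment. Of 10763 features tested, 290 (2.69%) rose in the marked barcodes and 201 (1.87%) fell, at an adjusted p under 0.05 and a log2 fold change beyond 1. The median log2 fold change of those that rose was 2.49, against -0.20 over all features tested. Of the 290, 272 had a ratio above 1 in both libraries. They took 13.5% of the UMIs of marked barcodes in library 1, against 3.06% in the others, and 7.19% against 0.896% in library 2. The 290 were called on these same counts, so their ratios and shares are a description. In empty droplets they took 2.81% and 1.23%. Without scaling factors beyond the library totals, 385 rose and 169 fell, and the median of all features moved to -0.02. DESeq2 with the same design called 81 features higher and 2 lower. Without the library term, edgeR called 0 of either (207 and 205 at an unadjusted p under 0.05), and with only barcodes of a summed count of at least 2 (library 1) or 4 (library 2) marked it called 2 higher and 0 lower (113 and 49 unadjusted).

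Evidence for single features in library 1 was thin. Of the features that rose, 92 had at least 10 UMIs in the marked barcodes of each library, and 196 had fewer than 10 in library 1. For those 92 the ratio exceeded 1 in both libraries, with median log2 ratios of 2.08 in library 1 and 2.59 in library 2. The 347 features with as many UMIs that were not called had medians of 0.33 and 0.14. The calls used these same counts, so that gap is a description. Of all 444 features with at least 10 UMIs in marked barcodes of each library, 107 (24.1%) were at least 2-fold higher in both, but that filter looks at the marked barcodes and favours features high in them. With a filter on the level over all called barcodes instead (at least 10 UMIs in marked barcodes at the mean level), 20 of 308 features (6.49%) were at least 2-fold higher in both libraries and 16 (5.19%) at least 2-fold lower. Across 307 of these with a UMI in marked barcodes of each library, the log2 ratios of the libraries correlated at r = 0.548 (Spearman 0.538), a description over features that are not independent of each other.

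**Figure D3:**
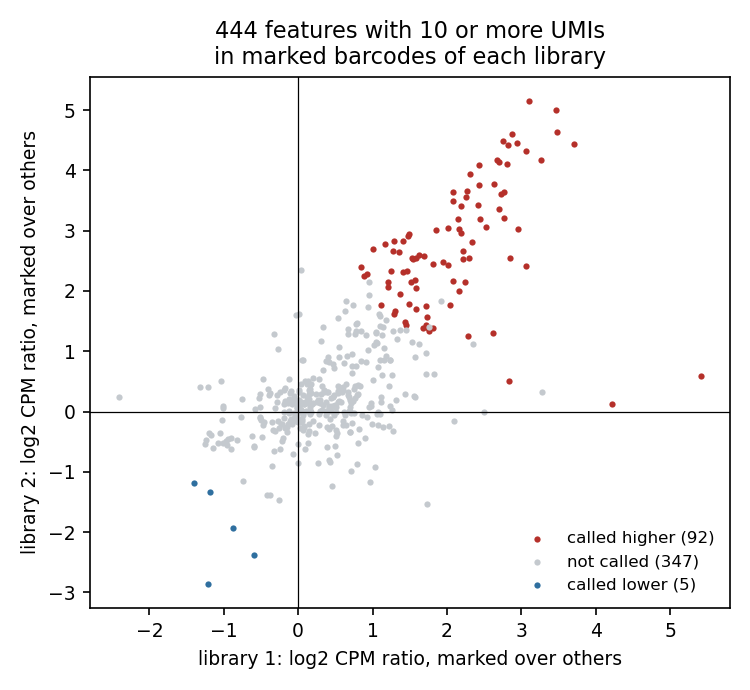
Log2 CPM ratio of marked over other called barcodes in library 1 (x axis) and library 2 (y axis) for the 444 features with at least 10 UMIs in the marked barcodes of each library. The filter favours features high in marked barcodes. The 92 that rose (red), which were called on these same counts, lie above 0 on both axes. Of the rest, 5 fell (blue) and 347 were not called (grey).

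The 15 features named here are those that rose with the largest ratio in the weaker library, so their direction in both libraries follows from the choice. Their ratios were 6.61 to 13.1 in library 1 and 8.15 to 35.5 in library 2. TRINITY_DN11078_c0_g1 led by that rule, at 472 CPM in marked against 36.2 CPM in other barcodes of library 1, and at 83.4 against 3.84 CPM in library 2 (log2 fold change 3.84 ± 0.52 SE, adjusted p = 5.21e-11 by edgeR's quasi-likelihood test, higher in 2 of 2 libraries). It is a scarce transcript, with 14 and 20 UMIs in the marked barcodes. TRINITY_DN26911_c0_g2 was at 843 against 75.3 CPM in library 1 and at 2149 against 86.3 CPM in library 2 (log2 fold change 3.91 ± 0.52, adjusted p = 1.97e-11). It was widespread in the marked barcodes of library 2, where 79 of 83 (95.2%) held a UMI of it, against 7.21% of the others. In library 1 it was found in 31.3% of the marked and 2.56% of the other barcodes.

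TRINITY_DN20796_c0_g2 had the smallest p of all features tested. Its level was 877 against 102 CPM in library 1 and 305 against 8.57 CPM in library 2 (log2 fold change 3.94 ± 0.42, adjusted p = 4.33e-17). It was seen in 32.8% of marked and 3.19% of other barcodes of library 1, and in 53.0% against 1.38% in library 2. TRINITY_DN24230_c0_g1 followed a similar course, at 674 against 70.0 CPM in library 1 and 209 against 11.5 CPM in library 2. TRINITY_DN25256_c0_g1 reached the second highest ratio of the 15 in library 2, with 104 CPM in marked and 3.25 CPM in other barcodes, and 506 against 45.7 CPM in library 1. Their log2 fold changes were 3.55 ± 0.40 (TRINITY_DN24230_c0_g1, adjusted p = 1.79e-15) and 3.97 ± 0.47 (TRINITY_DN25256_c0_g1, adjusted p = 4.30e-14).

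The most abundant of the 15 was TRINITY_DN25550_c0_g3. In library 1 it took 2.03% of the UMIs of marked barcodes, the first rank among all features there, against 0.307% and rank 20 in the others. In library 2 it took 0.530% at rank 14, against 0.0433% at rank 156. It was present in 85.9% and 95.2% of the marked barcodes, against 31.5% and 22.7% of the others, and its log2 fold change was 2.95 ± 0.67 (adjusted p = 0.00067). TRINITY_DN27349_c0_g1 and TRINITY_DN27455_c0_g3 were likewise abundant, at 4349 and 1989 CPM in marked against 639 and 296 CPM in other barcodes of library 1. Library 2 had 1527 and 1652 CPM of them in marked barcodes, beside 123 and 73.7 CPM in the others.

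The other 7 ranged in log2 fold change from 2.79 (TRINITY_DN27285_c1_g1) to 3.72 (TRINITY_DN31230_c0_g2). TRINITY_DN31230_c0_g2 was found in 74.7% of the marked barcodes of library 2, against 4.76% of the others, but in library 1 it had 11 UMIs in 9 marked barcodes. TRINITY_DN19673_c0_g2 was found in 45.3% of the marked barcodes of library 1 and 79.5% of those of library 2, against 5.77% and 5.39% of the others. TRINITY_DN20262_c0_g1 was found in 35.9% and 73.5%, against 4.14% and 4.89%. In empty droplets these 3 were at 35.1, 127 and 112 CPM in library 1, below the 371, 1484 and 1045 CPM of the marked barcodes. No single barcode gave more than 27.3% of the UMIs of any of the 15 in the marked barcodes of either library.

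**Figure D4:**
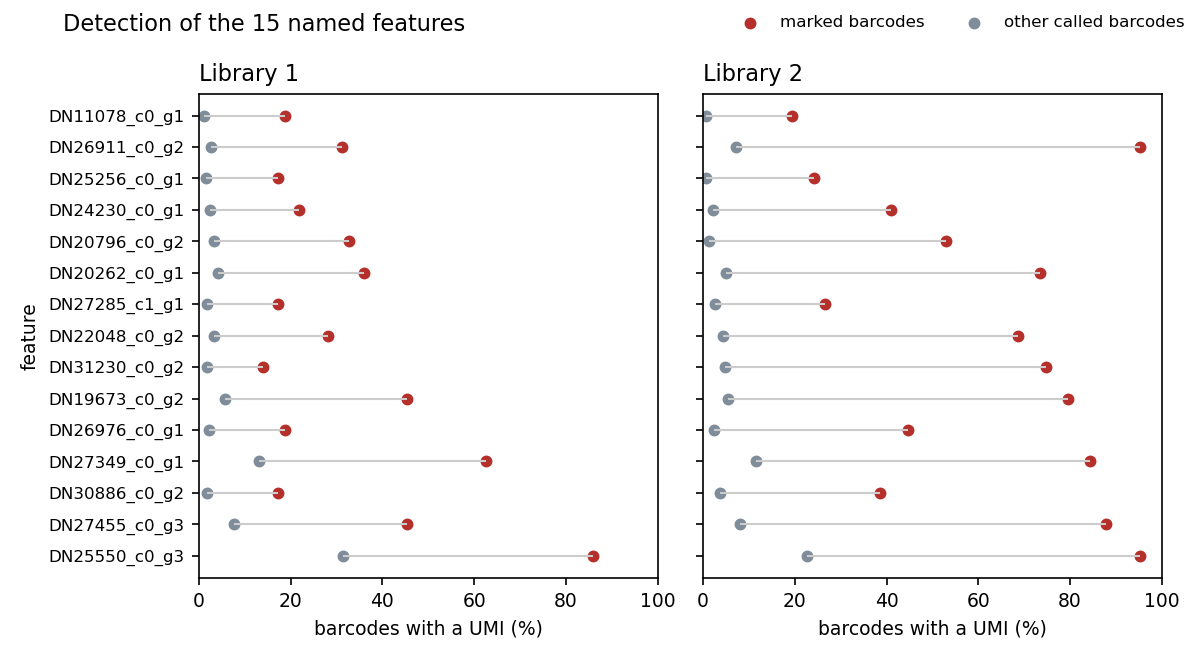
Share of barcodes with at least 1 UMI of each of the 15 named features (x axis, %), in marked (red) and other called barcodes (grey) of each library. The 15 were chosen for being higher in marked barcodes of both libraries, so red points to the right of grey ones are a description. They reach 95.2% for TRINITY_DN26911_c0_g2 and TRINITY_DN25550_c0_g3 in library 2.

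Unmarked barcodes of cluster 5, which were below the minimum for the 2 rule features, also carried the named ones. TRINITY_DN25550_c0_g3 stood at 24753 CPM in them in library 1 and 4417 CPM in library 2, beside 20297 and 5298 CPM over all marked barcodes. TRINITY_DN19673_c0_g2 stood at 2026 and 1125 CPM, beside 1484 and 964 CPM. Marked barcodes outside cluster 5 held less of TRINITY_DN19673_c0_g2, at 219 and 415 CPM, and of TRINITY_DN26911_c0_g2, at 0 and 978 CPM. All called barcodes outside cluster 5 held 80.8 and 32.7 CPM of the first, and 23.4 and 69.2 CPM of the second. In library 2 the marked ones there thus stayed above that level for both. Since the cluster was made from these features, the values are a description. Restricted to barcodes outside cluster 5, a comparison added after seeing the data, 13 of 9625 features rose in marked barcodes and 9 fell.

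The pattern was read in a library that had not been used to choose the features. Of 158 features at least 2-fold higher in the marked barcodes of library 1 and with at least 10 UMIs there, 146 were deep enough in library 2 to expect at least 3 UMIs in its marked barcodes, and 104 of those (71.2%) were at least 2-fold higher there too. Among all 9654 features of that depth it was 8.93%, and among the 306 with at least 10 UMIs in marked barcodes of library 1 that were not 2-fold higher there it was 26 (8.50%). In the other direction, 865 features were chosen in library 2, 218 could be read in library 1 and 97 (44.5%) were 2-fold higher, against 7.60% of 2354 and against 74 of 1793 (4.13%) with the same floor that had not been chosen.

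Per barcode, the features chosen in library 1 took a median of 7.10% of the UMIs of marked barcodes in library 2 (0.899 to 22.8%), against 1.29% in the others (0.0672 to 24.8%). By the summed count of the 2 rule features, which is the count that chose the barcodes, its median was 1.28% at a sum of 0, 2.42% at 1, 5.35% at 2, 6.22% at 3 and 11.4% at 4 or more. Median totals at sums of 0 to 5 lay between 1512 and 1879 UMIs, but the 10 barcodes with sums of 6 or more were deeper, with medians of 4894.5 to 9233 UMIs. The features chosen in library 2 took a median of 26.6% of the UMIs of marked barcodes in library 1 (3.03 to 41.3%), against 6.78% in the others (0.373 to 43.7%). The range of the marked barcodes lay within that of the others in each library, so the share alone does not separate the classes. Of the marked barcodes, 79 of 83 in library 2 and 52 of 64 in library 1 lay above the upper quartile of the others.

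**Figure D5:**
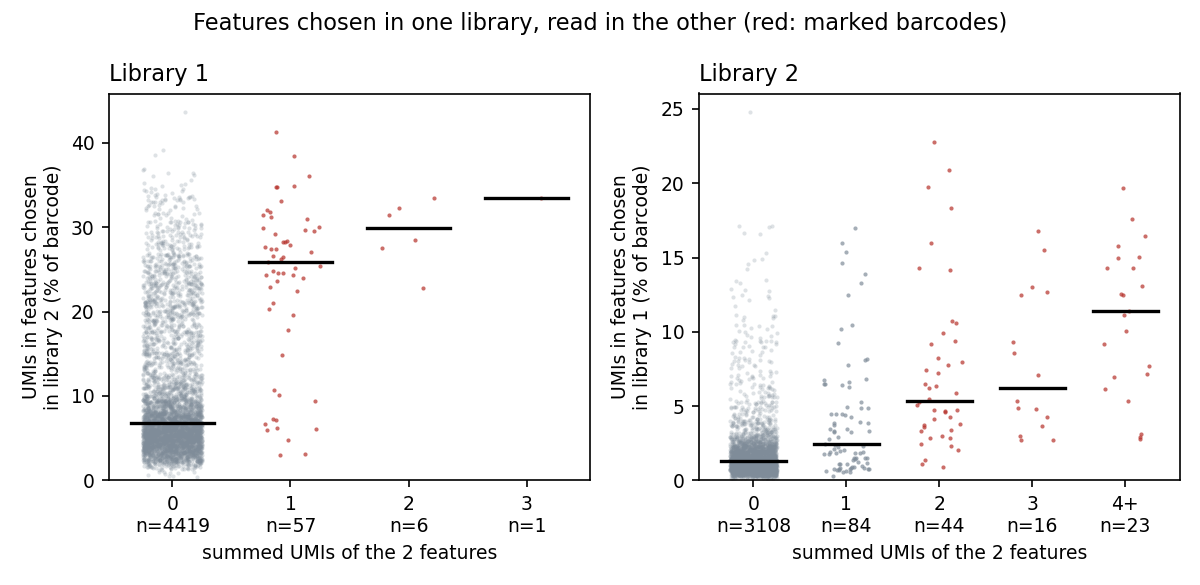
Share of each barcode's UMIs that fell on features chosen in the other library (y axis, %), by the summed UMIs of the 2 rule features (x axis); lines are medians, marked barcodes are red and others grey. In library 2 the median was 1.28% at a sum of 0 and 11.4% at 4 or more, where some barcodes were also deeper.

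The clusters were made with these features, so the shares by cluster are a description. The 48 in cluster 5 had a median share of 28.1% (17.8 to 41.3%), and the 16 elsewhere had 7.18% (3.03 to 28.2%), near the 6.49% of unmarked barcodes outside the cluster. In library 2 the 64 in the cluster had a median of 7.87% and the 19 elsewhere 3.35%, against 1.27% of unmarked barcodes outside it. The 291 and 66 unmarked barcodes of cluster 5 had medians of 26.5% and 5.53%.

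Marked barcodes with 1 of the 2 features alone were compared with each other. In library 1, 26 marked barcodes held TRINITY_DN20394_c0_g1 alone, 35 held TRINITY_DN29970_c0_g1 alone and 3 held both. In library 2 these were 12, 16 and 55. Of 219 features tested between the single-feature classes, 1 (0.457%) differed by edgeR's quasi-likelihood test. That feature, TRINITY_DN28401_c0_g1 (log2 fold change 4.33 ± 0.71, adjusted p = 9.79e-07), had 0 UMIs in the marked barcodes of library 1 with a single rule feature (0 features differed without the library term, also at an unadjusted p under 0.05). Its 590 UMIs in the TRINITY_DN20394_c0_g1 class of library 2 came from 1 barcode, so the call rests on that barcode. Cluster 5 held 69.2% of the first class and 77.1% of the second in library 1, and 75% and 81.3% in library 2. The 15 named features summed to 25665 CPM in the first class and 39840 CPM in the second in library 1, and to 12131 and 15658 CPM in library 2. In other called barcodes they summed to 4977 CPM in library 1 and 936 CPM in library 2. The 15 were chosen for being high in marked barcodes, so an excess over the other barcodes was built in.

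Many features that fell had no UMI in marked barcodes. Of the 201, 98 had 0 UMIs in the marked barcodes of library 1 and 26 had 0 UMIs in those of library 2 (48.8% and 12.9%), against 34.6% and 2.96% of all features tested. The 201 were called on these same counts, so an excess of zeros was built in and is a description. TRINITY_DN21866_c0_g3 had 0 UMIs in marked barcodes of both libraries and 107 CPM in the others of library 2. With a floor of 3 counts per library it would be at least 8.57-fold lower, if UMIs were independent. In library 2 it was found in only 53 of the other barcodes (1.66%), so that fold is no firm bound. Of its UMIs in those others, 93.7% lay in cluster 29. TRINITY_DN22903_c0_g2 was at least 7.46-fold lower in library 2 by the same floor, with 74.1% of its UMIs in cluster 8. TRINITY_DN24044_c0_g2 was at least 4.06-fold lower in library 2 and at least 1.51-fold lower in library 1 by that floor. It had 78.2% and 84.5% of its UMIs in cluster 18. Only 1.82% and 1.02% of the other barcodes held it, so these folds are no firm bounds either. The other 7 of the 10 named features that fell also had 0 UMIs in marked barcodes. The 10 were chosen for the lowest ratios, so these zeros follow from the choice. Among them, TRINITY_DN26357_c1_g3 had 94.5% of its UMIs in cluster 29 in library 2, where 0.877% of the other barcodes held it. In library 1 the floor was 101 CPM, above the level of 8 of these 10 in the other barcodes, so library 1 gives no bound for those 8. The count of features that fell depends on depth and tool: it was 12 with every barcode thinned to the calling minimum and 2 with DESeq2, for which 1044 features had no adjusted p.

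In the list of 12 features that mark other barcodes in these data, 6 fell in marked barcodes, 0 rose and 6 were not called (over all features tested, 1.87% fell and 2.69% rose), with a median log2 fold change of -1.96, against -0.20 over all features. These markers were taken from earlier results of these data for being high elsewhere, so their direction is not independent evidence. TRINITY_DN20392_c0_g1 stood at 337 against 783 CPM in library 1 and 221 against 1599 CPM in library 2 (log2 fold change -2.40 ± 0.53, adjusted p = 0.00039 by edgeR). TRINITY_DN26570_c0_g1 stood at 33.7 against 89.5 CPM in library 1, where marked barcodes held 1 UMI, and at 25.0 against 664 CPM in library 2. The 12 summed to 841 CPM in marked and 3821 CPM in other barcodes of library 1, and to 2029 and 3732 CPM in library 2. At least 1 of their UMIs was present in 28.1% of marked and 25.2% of other barcodes of library 1, and in 54.2% and 58.7% of library 2. In the marked barcodes 5 of the 12 were at 0 in library 1 and TRINITY_DN29924_c0_g1 was at 0 in library 2, against 1 and 0 markers in the others. TRINITY_DN22219_c0_g1, among the 6 that fell, stood at 135 against 2207 CPM in library 1 but at 159 against 212 CPM in library 2. There, 78.9% of its UMIs in marked barcodes came from 1 barcode.

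A few marked barcodes of library 2 did carry another set's marker in quantity. TRINITY_DN30860_c0_g6 had 265 UMIs in 6 of the 83, of which 56.2% lay in 1 barcode, and stood at 1106 CPM in marked against 466 CPM in other barcodes (log2 fold change 0.91 ± 0.56, adjusted p = 0.56 by edgeR). In the marked barcodes outside cluster 5 it stood at 2808 CPM. TRINITY_DN32476_c1_g1 had 89 UMIs in 2 barcodes, 88.8% of them in 1 (log2 fold change 1.45 ± 0.48, adjusted p = 0.0524 by edgeR). The part of such barcodes in the results above was not tested as such. Without the 5 and 2 marked barcodes among those with the highest doublet scores, 295 features rose, of which 282 were among the 290.

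Over clusters, a handful of features followed the 2 rule features most closely. Levels on the log2(CPM + 10) scale, centred in each library, were correlated over 48 points (24 clusters with at least 20 barcodes in each of 2 libraries) for 7026 features with at least 50 UMIs in each library. TRINITY_DN19673_c0_g2 came first (r = 0.783), then TRINITY_DN33150_c4_g3 (0.778), TRINITY_DN26976_c0_g1 (0.776), TRINITY_DN32363_c0_g1 (0.729) and TRINITY_DN26911_c0_g2 (0.723). The points share libraries and clusters, so the coefficients are a description. TRINITY_DN33150_c4_g3 stood at 517 against 16.0 CPM in library 2 and 303 against 35.0 CPM in library 1, with 9 UMIs in the marked barcodes of library 1 (log2 fold change 4.12 ± 0.45, adjusted p = 5.77e-16 by edgeR). TRINITY_DN32363_c0_g1 stood at 868 against 28.7 CPM in library 2 and had 3 UMIs in the marked barcodes of library 1.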

How the data were processed

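UMI counts per feature and barcode were deposited by the authors as 1 matrix for both libraries, made with Cell Ranger 3.0.2 per the file headers and the submitters' processing notes. The reference, the aligner settings and any equalising of depth are not given in the sources used here. Libraries were told apart by the barcode suffix, matched to the run number in the labels (0 columns of other samples). Of 23786 features, 20303 had a UMI in library 1 and 21948 in library 2, with totals of 6581711 and 34060611 UMIs. Components DN20394 and DN29970 hold no feature besides the 2 of the rule.

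The barcodes, the feature lists and the tests were chosen with earlier results of these data known. No p adjusted over a list alone is given. Both rule features were removed from counts and totals. Counts were summed per library and class and tested with edgeR 4.0.16 (TMM, default low-count filter, library as block because both classes come from the same library, 1 residual degree of freedom). The SE is the log2 fold change divided by the square root of F. DESeq2 1.42.0 was an alternative. On simulated sums for this comparison (10138 features), edgeR recovered 94% of features changed 8-fold, 42% changed 4-fold, 2% changed 2-fold and 14% lowered to 0.25, with 1 false call. The simulated sums had 1 shared dispersion (0.056), the same fold in both libraries and no feature carried by a single barcode. The real data do hold such features, so the 1 false call is no guide to false calls in them. Named features were the 15 that rose with the largest ratio in the weaker library and at least 10 UMIs in marked barcodes of each, the 10 that fell with the lowest ratio in the weaker library and at least 10 UMIs in other barcodes of each, and the 5 most alike over clusters. Clusters came from scanpy 1.11.5 and leidenalg 0.10.2 (2000 variable features scaled within library, 30 components, 15 neighbours, resolution 1.0). Scrublet's own threshold marked 0 and 1 barcodes, so it had not worked. Doublets were kept, and the 161 and 86 highest scores were removed as an alternative. Empty droplets lay around totals of 59 UMIs in library 1 and 311 UMIs in library 2. PCR and droplets add error that the binomial intervals do not cover.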

Additional observations from a re-analysis of the deposited data

Results flagged for a closer look

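Transcripts of the 2 rule features also lay in barcodes that no comparison used. Between the empty droplets and the calling minimum, the features summed to 21.5 CPM in library 1 (19592 barcodes, 39 UMIs) and 31.1 CPM in library 2 (25388 barcodes, 403 UMIs), against 15.8 and 17.7 CPM in empty droplets. The called barcodes were at 42.0 and 50.1 CPM. Barcodes with totals below the empty droplets were at 15.7 CPM in library 1 (9 UMIs) and 31.3 CPM in library 2 (115 UMIs). In library 2 the excess was thus not particular to the larger uncalled barcodes. Of the barcodes between the empty droplets and the calling minimum, 39 of library 1 and 62 of library 2 reached the summed minimum of the rule. These values were picked out because the levels in barcodes left out exceeded those of empty droplets, and they have no replicate beyond the 2 libraries.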

How the results depend on the processing

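The fit without a replicate block left 0 features that rose, 0 that fell (207 and 205 at an unadjusted p under 0.05 in edgeR) and 0 between the single-feature classes. For the values that follow, the cause was not tested. Features that rose numbered 81 with DESeq2, 2 with stricter membership (sums of at least 2 and 4), 132 and 169 with barcodes marked by TRINITY_DN20394_c0_g1 or by TRINITY_DN29970_c0_g1 alone, 118 after thinning and 13 outside cluster 5. All 81, both of the 2, 128, 162, 114 and 10 were among the 290. Features that fell numbered 2, 0, 96, 114, 12 and 9 in the same order (for the 0, 49 had an unadjusted p under 0.05 in edgeR). Features tested numbered 10763, 10229, 10183, 10068, 7596 and 9625 in that order. Features 2-fold higher in both libraries numbered 10 of 18, 34 of 137, 61 of 160, 34 of 91 and 1 of 51 in the same order without DESeq2, against 107 of 444, and 20 of 308 with the filter on the level over both classes, added after seeing the data. The single-feature comparison gave 49 of 11922 without a low-count filter. Marked barcodes numbered 30 with stricter membership, 65 after thinning to the calling minimum of library 1 and 97 at 1.5 times the calling minimum. Their mean share in the leading cluster was 76.1%, and became 77.9% at resolution 0.5, 61.0% at 2.0, 66.4% with 15 components, 79.7% without the highest doublet scores, 93.5% with stricter membership, 57.8% in library 1 clustered alone and 81.9% in library 2 clustered alone. With 1 library left out no test remains. The 2-fold rule alone then gave 158 of 465 features higher in library 1 and 865 of 4762 in library 2. These also stand in for the count in both libraries. Lower were 73 of 316 and 572 of 4238. Between the single-feature classes, 108 of 423 and 429 of 1005 differed by that rule, without a test. Marked barcodes numbered 64 to 83, their share in cluster 5 was 75 to 77.1%, and the joint presence was 10.3 to 50%. The mean joint presence was 30.2% and became 5.76% after thinning, a fall smaller than the SD of 28.0 between the 2 libraries. That SD comes from 10.3% and 50% in libraries of unlike depth, so it does not show that the share held. Other settings kept counts within 1.5 times. The deepest marked barcode of each library, left out after seeing the data, left 323 features that rose, 282 of them among the 290.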

Other observations

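Some of the features that rose rest on 1 marked barcode. In library 1, 6 of 94 features that rose and had at least 10 UMIs in marked barcodes took over 50% of them from 1 barcode, and in library 2 it was 4 of 266. Those named here were chosen after their values were seen. TRINITY_DN19844_c0_g1 had 100 UMIs in the marked barcodes of library 1, all in the deepest barcode (3018 UMIs), and a ratio of 0.763 in library 2. TRINITY_DN30418_c0_g1 and TRINITY_DN22718_c0_g2 had 96.4% and 94.6% of their UMIs in that same barcode, with ratios of 1.51 and 1.09 in library 2. TRINITY_DN19130_c0_g1 had 26 of 27 UMIs in a barcode of 211 UMIs in library 1 and 0 UMIs in marked barcodes of library 2. TRINITY_DN22440_c1_g1 had 82.5% of 57 UMIs in 1 barcode of library 2. Such features were called by edgeR although 1 library or barcode carried them.

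The 290 features that rose belonged to 281 assembly components, of which 8 contributed 2 or more features, among 1997 components with at least 2 features tested. All 3 tested features of component DN28224 rose, with log2 fold changes of 3.37 to 3.91, although they differ in the c field (c0_g1, c1_g1 and c1_g3). Both tested features of DN29925 (3.72 to 4.30) and of DN32299 (2.45 to 4.10) rose too. In DN25173, 2 of 6 tested features rose, while TRINITY_DN25173_c0_g2 fell (log2 fold change -2.04 ± 0.60, adjusted p = 0.0193 by edgeR). How the counting treated reads shared between features of 1 component is not given in the sources used here.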
